A study of Mus musculus with 50 samples.

Results

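Expression of 10 Wnt pathway genes was examined in mammary gland (MG) tumors of p53R270H/+WAPCre mice. The genes were 8 Wnt ligands (Wnt2, Wnt4, Wnt5a, Wnt5b, Wnt6, Wnt7b, Wnt10a and Wnt11) and 2 target genes of the pathway (Axin2 and Lef1). They were chosen by gene symbol, and each symbol matched 1 of the 37701 rows of the expression table. The table covered 50 tumors in 5 treatment groups of 10 tumors each, from female mice that received repeated subcutaneous injections from 8 weeks of age. The groups received vehicle, insulin, glargine (a long-acting insulin analogue), X10 (an insulin analogue with a raised affinity for the IGF1 receptor) or IGF1. All groups, vehicle included, carried the same heterozygous p53 mutation, switched on by Cre under the whey acidic protein promoter, which is active in the secretory epithelium of the mammary gland. The sample titles call the control group Untreated, but the treatment description says that these mice were injected with vehicle, and the group is named vehicle here. The tumors had a volume of 1 cm3 at collection, which followed the final dose by 24 hours, and each is named by its group and mouse number. The study had selected tumors with features of epithelial to mesenchymal transition (EMT) and, among these, the ones with a latency nearest the group median. The 10 tumors of a group are therefore not a random sample of it. The paper reports a shorter latency for X10 and IGF1, so mouse age and length of treatment at collection were not matched between groups.

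Wnt ligands are secreted glycoproteins that bind Frizzled receptors on nearby cells. In the canonical branch, with LRP5 or LRP6 as coreceptor, this binding stops the destruction of beta-catenin, which then enters the nucleus and activates genes together with TCF/LEF factors. Axin2 is a scaffold of the destruction complex and a feedback target of the pathway in many tissues, and Lef1 is both a TCF/LEF factor and a target. Wnt5a, Wnt5b and Wnt11 are best known for signaling that does not need beta-catenin, such as planar cell polarity and calcium signaling, whereas Wnt6, Wnt7b and Wnt10a are mostly described as canonical ligands. In the mammary gland, Wnt4 relays the progesterone signal from luminal cells to the basal layer and drives side branching, and Wnt2, Wnt5a and Wnt5b are known from the stroma or ducts of the developing gland.

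The 3 windows shown here are the 250 bases before an annotated start site, in the direction of the gene (RefSeq, build GRCm38.p6). They were chosen because Axin2 is the standard readout of the pathway and because Wnt5b and Wnt11 hold the core of the TCF/LEF motif, CTTTGAT, which is printed in capitals where it or its reverse complement ATCAAAG occurs.
Axin2 (chr11:108920099-108920348, plus strand): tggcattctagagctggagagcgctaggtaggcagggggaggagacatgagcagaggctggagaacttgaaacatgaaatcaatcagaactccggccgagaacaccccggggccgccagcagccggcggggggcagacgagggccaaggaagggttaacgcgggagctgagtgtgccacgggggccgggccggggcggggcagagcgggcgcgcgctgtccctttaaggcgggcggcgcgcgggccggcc
Wnt5b, the third of its start sites (chr6:119449387-119449636, minus strand): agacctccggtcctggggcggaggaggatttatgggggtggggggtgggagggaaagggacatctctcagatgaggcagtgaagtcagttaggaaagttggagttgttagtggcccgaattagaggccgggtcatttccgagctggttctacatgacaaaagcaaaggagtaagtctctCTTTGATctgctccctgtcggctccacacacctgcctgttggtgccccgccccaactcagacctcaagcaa
Wnt11, the first of its start sites (chr7:98834862-98835111, plus strand): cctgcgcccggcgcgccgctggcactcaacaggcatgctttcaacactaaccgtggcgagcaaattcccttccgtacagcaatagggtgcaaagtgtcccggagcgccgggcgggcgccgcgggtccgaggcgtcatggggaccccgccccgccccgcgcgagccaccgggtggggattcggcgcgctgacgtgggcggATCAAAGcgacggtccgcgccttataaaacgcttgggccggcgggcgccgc
The Wnt5b match lies 71 to 65 bases before the start and reads in the direction of the gene. The Wnt11 match lies 51 to 45 bases before the start and reads on the other strand. Windows were given for 7 of the 10 genes, 13 windows in all, and 2 of the 13 held the motif, against 3.21% of all 32851 windows of this length. The Axin2 window, the 4 Lef1 windows and the windows of Wnt2, Wnt4 and Wnt6 held no match, which says only that these 7 letters are not in these bases. Wnt5a, Wnt7b and Wnt10a had no entry.

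Libraries held 26.6 to 51.9 M reads (median 40.9 M), as recovered from the steps of the deposited values. RPKM is the read number divided by the gene length in kilobases and by the library size in M reads. The marker genes of several cell types varied widely between tumors. Of the epithelial markers, Krt8 had a median of 173.9 RPKM and ranged from 2.39 to 1616, and Cdh1 had a median of 6.56 RPKM and ranged from 0.993 to 106. The milk gene Wap was at 0.054 RPKM in the median tumor, whereas the fibroblast and EMT-associated collagen gene Col1a1 was at 8435. Each tumor was given a score for each of 8 marker lists, the mean of its standardised log2 levels, and 6 tumors had an epithelial score above 1 (vehicle_174, vehicle_182, vehicle_195, X10_105, X10_111 and glargine_63). In whole tumors, fewer cells of a type and less RNA per cell cannot be told apart.

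By RPKM, Wnt7b was the most abundant of the 10 genes, at 47.3 ± 28.9 (mean ± SD, n = 50), followed by Wnt5a at 37.0 ± 22.4. Axin2 came next at 16.3 ± 12.5, then Wnt2 at 8.78 ± 21.0 and Wnt10a at 8.60 ± 8.90. Wnt5b had a mean of 3.50 ± 3.37 RPKM, Wnt11 of 3.32 ± 2.87, Wnt4 of 1.91 ± 4.09 and Lef1 of 1.14 ± 1.69. Wnt6 was lowest, at 0.466 ± 0.454 RPKM, below the mean of 0.5 set as the limit for testing, so 9 of the 10 genes were tested. The SD of every gene was at least 60.4% of its mean, so neighbours in this order were not separated beyond their spread. Exons of Wnt5a, Wnt7b, Wnt11, Axin2 and Lef1 share positions with those of another annotated gene. Strand was not considered, so whether their reads are affected was not tested. The order also depended on the gene length. The deposited values used 1051 bases for Axin2 and 1254 for Wnt5a, but the longest annotated transcripts have 4260 and 7010 bases. Per kilobase of the longest transcript, Wnt7b stayed first with a mean of 47.4 (library size scaled as for RPKM), followed by Wnt10a at 8.60, Wnt2 at 7.78, Wnt5a at 6.62 and Axin2 at 4.02.

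**Figure D1:**
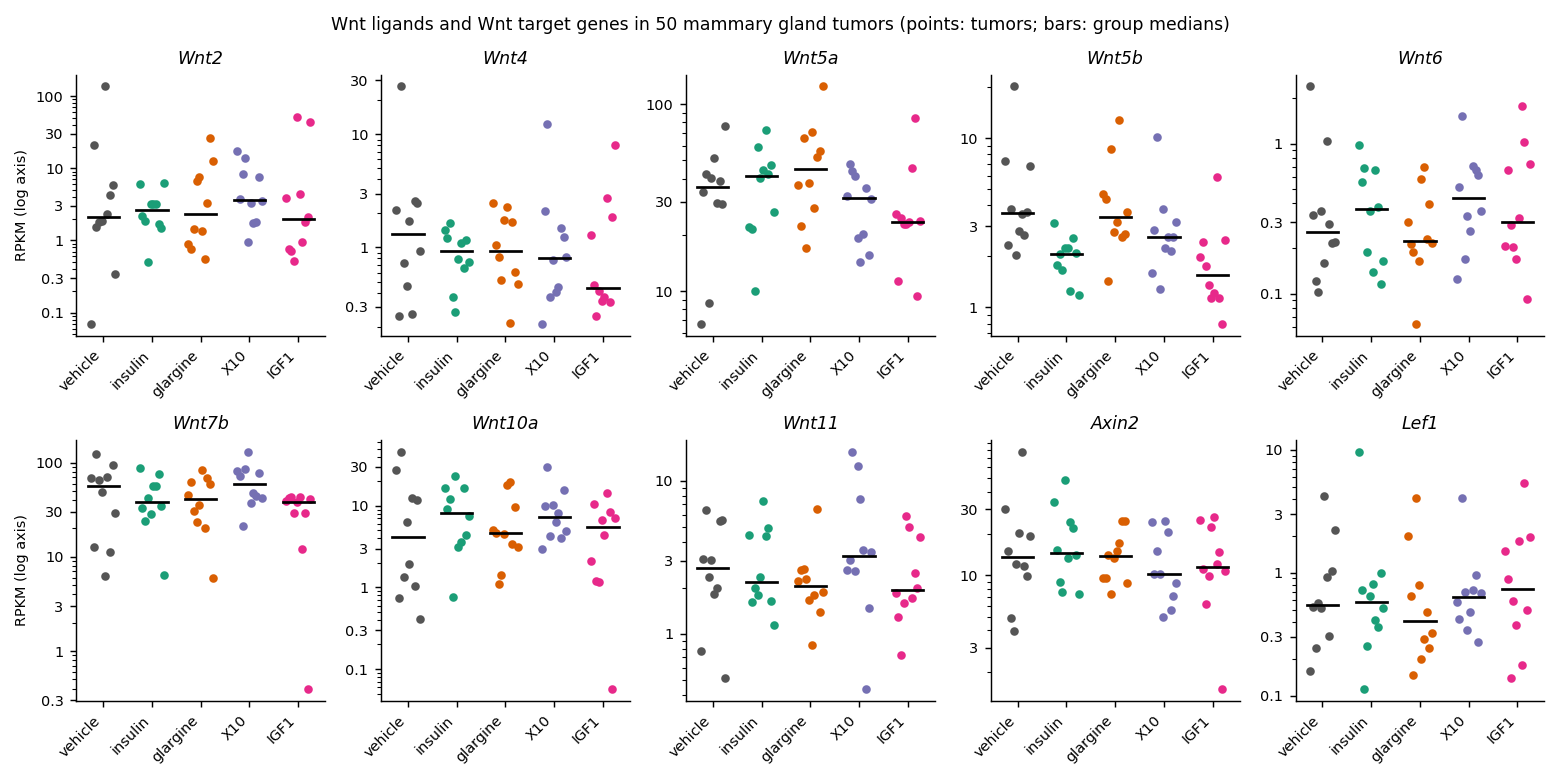
RPKM of each gene (log axis) in the 10 tumors of each treatment group; points are tumors and horizontal bars are group medians. The groups overlapped for all 10 genes, and single tumors such as vehicle_187 for Wnt2 (136.2 RPKM) and IGF1_158 for Wnt7b (0.396 RPKM) lay far from the rest.

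The genes differed between tumors more than most. The SD of log2(RPKM + 0.5) over the 50 tumors was 1.64 for Wnt2, 1.43 for Wnt10a and 1.28 for Wnt7b, against a median of 0.419 over the 16733 genes tested. The SD of Wnt2 was larger than that of 98.3% of these genes, and that of Wnt5b, the smallest among the 9 tested members, was larger than that of 86.6%. Wnt2, a ligand known from mesenchyme, ranged from 0.07 RPKM in vehicle_161 to 136.2 in vehicle_187, with a median of 2.77. Only 7 tumors exceeded 5 times that median, and the next highest were IGF1_136 (52.03 RPKM) and IGF1_160 (43.3 RPKM). Wnt4 had a median of 0.822 RPKM and stood at 26.6 in vehicle_174, 12.4 in X10_105 and 8.10 in IGF1_160, the 3 tumors beyond 5 medians. Lef1 had a median of 0.569 RPKM and reached 9.69 in insulin_8 and 5.41 in IGF1_147. Wnt5a had the smallest SD relative to its mean (60.4%), and ran from 6.69 RPKM in vehicle_161 to 125 in glargine_78, and no tumor exceeded 5 times its median. Wnt7b likewise had no tumor above 5 medians. Its wide spread came from below, with 0.396 RPKM in IGF1_158.

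By RPKM, 2 genes made up most of the summed level of the 8 ligands in most tumors. Further ligands such as Wnt7a and Wnt9a were not part of this sum. Wnt7b and Wnt5a together made up a median of 80.8% of the summed RPKM of the 8 ligands, and between 28.5% and 95.03% in single tumors. Wnt7b was the leading ligand in 31 tumors, Wnt5a in 16 and Wnt2 in the other 3 (vehicle_187, IGF1_136 and IGF1_160). In vehicle_187, Wnt2 alone held 67.3% of the sum. Wnt7b led in 9 of the 10 X10 tumors, in 6 of the vehicle and 6 of the glargine tumors, and in 5 of the insulin and 5 of the IGF1 tumors. These counts moved with the length used. Per kilobase of the longest transcript, Wnt7b led in 42 tumors, Wnt2 in 4, Wnt10a in 3 and Wnt5a in 1. The joint share of Wnt7b and Wnt5a then had a median of 76.7% (10.8% to 92.5%), most of it from Wnt7b. The median share of Wnt5a alone was 33.8% by RPKM and 8.49% on this scale, and that of Wnt7b 46.9% and 68.4%. The sum of the 8 ligands had medians of 115.2 RPKM in vehicle tumors, 104 in insulin, 102 in glargine, 131 in X10 and 79.0 in IGF1 tumors, and ran from 16.7 in IGF1_158 to 249 in vehicle_174. Per kilobase of the longest transcript the medians were 93.1 in vehicle, 61.5 in insulin, 63.01 in glargine, 99.5 in X10 and 55.8 in IGF1 tumors, so the gap between vehicle and both insulin and glargine tumors was wider on that scale. These sums were not tested.

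**Figure D2:**
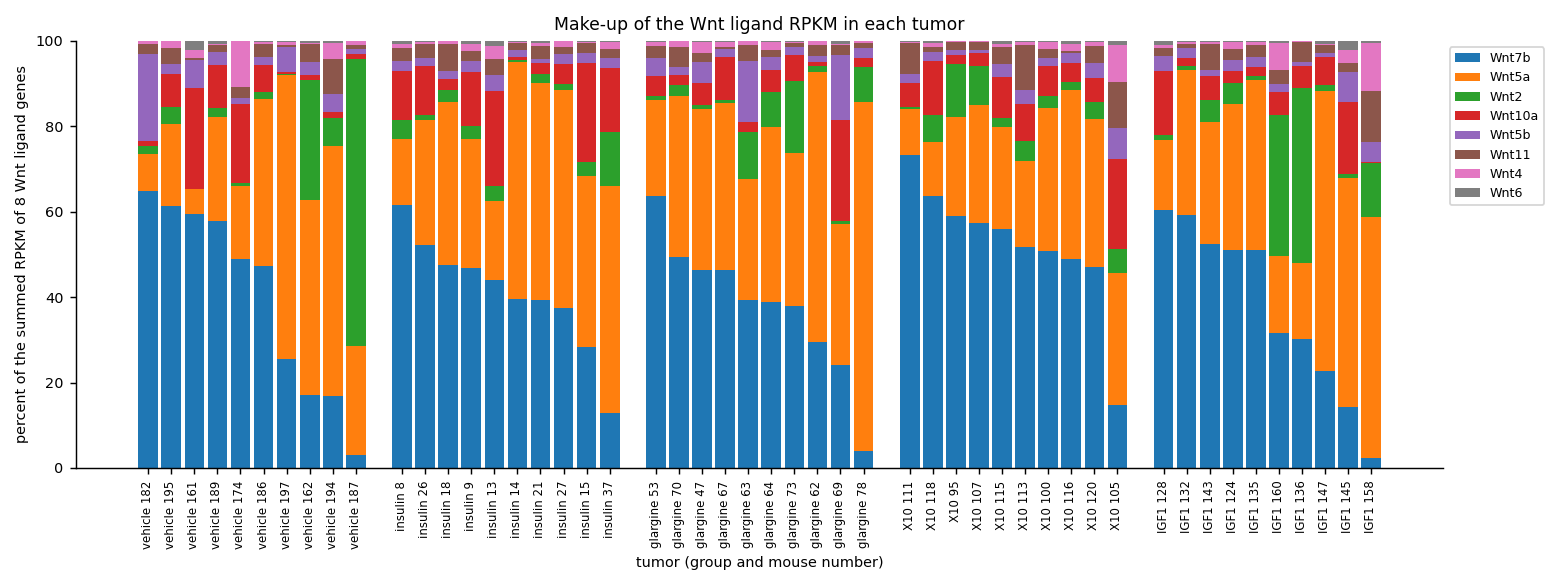
Percent of the summed RPKM of the 8 Wnt ligand genes held by each ligand, 1 bar per tumor, sorted by the Wnt7b share within each treatment group. Wnt7b and Wnt5a together fill a median of 80.8% of a bar and less than 50% in 4 tumors, namely X10_105 and the 3 tumors led by Wnt2 (vehicle_187, IGF1_136 and IGF1_160).

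Whether chronic treatment shifted these genes was tested by setting each treatment against vehicle and by setting X10 and IGF1, which bind the IGF1 receptor with high affinity, against the other 3 groups. None of the 9 tested genes passed an adjusted p of 0.05 in any comparison (limma on log2(RPKM + 0.5), adjusted over all 16733 genes). Calls were rare over the whole table too. They made up 0.0% of the genes tested for insulin, 0.0% for glargine, 0.0657% for X10, 0.00598% for IGF1, 0.155% for X10 and IGF1 against the rest, and 0.102% for any difference among the 5 groups. At an unadjusted p under 0.05, the members passing were 1 of 9 for insulin (11.1% of all genes), 0 of 9 for glargine (6.23%), 0 of 9 for X10 (11.0%), 1 of 9 for IGF1 (8.84%), 1 of 9 for X10 and IGF1 against the rest (10.5%) and 1 of 9 for any difference (13.1%). That gene was Wnt5b each time, and 1 of 9 is a share near the background. It was lower in all 3 of the comparisons that have a direction, beside 5.17% of all genes lower at this level for insulin, 4.34% for IGF1 and 7.57% for X10 and IGF1 against the rest. No member was lower at this level for glargine (2.92% of all genes) or X10 (8.25%). The limma voom test on the recovered reads called 0 of 9 as well and passed Wnt5b alone at the unadjusted level in the same 4 comparisons. The 4 comparisons with vehicle share the 10 vehicle tumors, so their values are not independent.

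Wnt5b, a ligand best known for signaling without beta-catenin, had a median of 3.60 RPKM in vehicle tumors (lowest 2.04, highest 20.2). In insulin tumors its median was 2.07 RPKM (1.18 to 3.15), and in IGF1 tumors 1.55 RPKM (0.798 to 5.89). All 10 insulin tumors and 9 of the 10 IGF1 tumors lay below the vehicle median, although the ranges overlapped. The log2 fold change was -1.09 for IGF1 (SE 0.31, p = 0.00101, limma adjusted p = 0.277) and -0.97 for insulin (SE 0.31, p = 0.00321, limma adjusted p = 0.301). In X10 tumors the median was 2.59 RPKM (1.28 to 10.2) and the log2 fold change -0.55 (SE 0.31, limma adjusted p = 0.520). Glargine tumors resembled vehicle tumors most, with a median of 3.41 RPKM (1.43 to 12.8) and a log2 fold change of -0.11 (SE 0.31, limma adjusted p = 0.966). For X10 and IGF1 against the other groups the value was -0.46 (SE 0.20, limma adjusted p = 0.381). The tumor vehicle_182 held the highest Wnt5b, and without it the log2 fold change was -0.85 for IGF1, -0.73 for insulin and -0.31 for X10.

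The epithelial markers are given beside Wnt5b. Of the 12, 9 had an unadjusted p under 0.05 and were lower in IGF1 than in vehicle tumors (4.34% of all genes), and 6 were so in insulin tumors (5.17% of all genes), while 0 passed the adjusted limit (limma). Their median log2 fold changes were -2.003 and -1.474. The summed level of the 12 markers ran from 23.9 to 8968 RPKM in vehicle tumors (median 395), from 77.7 to 580 in insulin tumors (median 282) and from 14.6 to 775 in IGF1 tumors (median 140), and none of the 12 was at 0 in any tumor. With the epithelial score as a covariate, the log2 fold change of Wnt5b was -0.65 for IGF1 (limma adjusted p = 0.957) and -0.65 for insulin (limma adjusted p = 0.648).

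**Figure D3:**
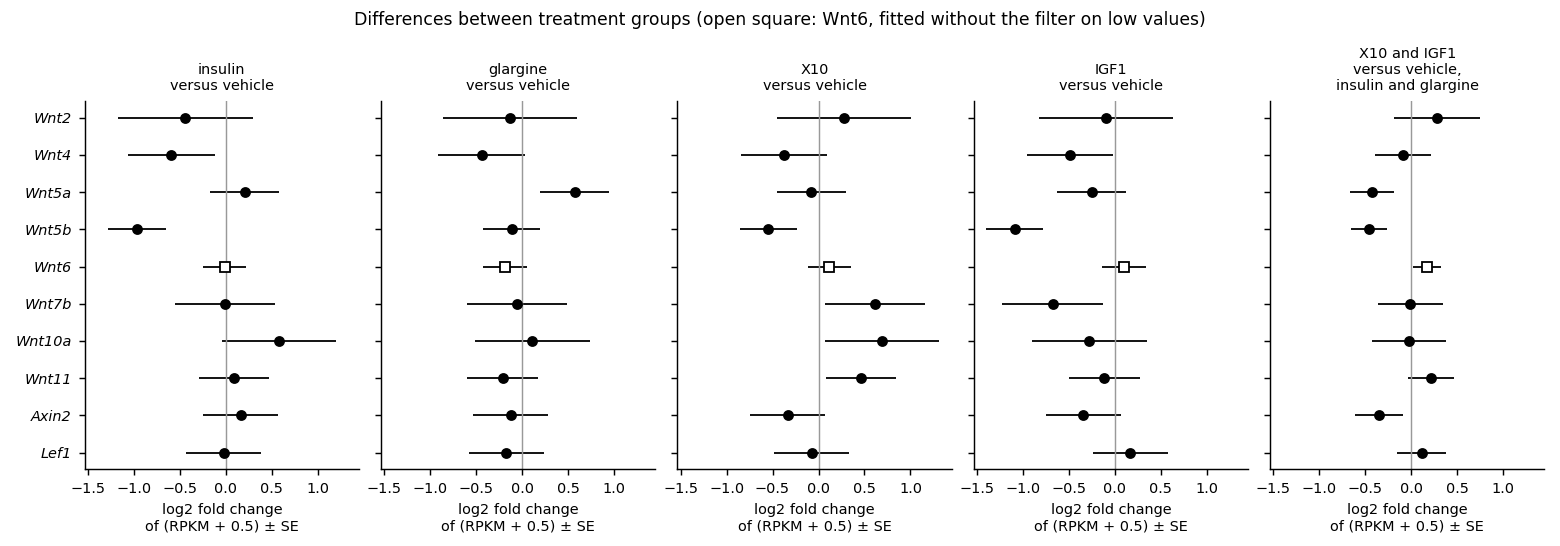
Log2 fold change of RPKM + 0.5 (points) with its standard error (bars) for each gene in the 5 comparisons, 10 tumors per group. Wnt5b was lowest for IGF1 (-1.09) and insulin (-0.97), and no value passed an adjusted p of 0.05.

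For the other ligands, the comparison with the smallest p is given. Wnt5a had a median of 36.2 RPKM in vehicle, 41.4 in insulin and 45.1 in glargine tumors, against 31.6 in X10 and 23.5 in IGF1 tumors. The log2 fold change of X10 and IGF1 against the rest was -0.42 (SE 0.24, p = 0.0842, limma adjusted p = 0.561), with 15 of 20 tumors below the median of the others. In the same comparison 3 of 8 fibroblast markers were lower at an unadjusted p under 0.05 (limma, 0 at the adjusted limit). Over all genes, 7.57% were lower at this level. With the fibroblast score as a covariate the value for Wnt5a was -0.21 (limma adjusted p = 0.806). Wnt7b had a median of 56.6 RPKM in vehicle tumors (6.32 to 122) and 38.6 in IGF1 tumors (0.396 to 43.0). All 10 IGF1 tumors were below the vehicle median, but 3 vehicle tumors had under 13 RPKM, and the log2 fold change of -0.68 (SE 0.54, limma adjusted p = 0.799) was -0.15 without IGF1_158 and -0.33 with the epithelial score as a covariate. Wnt10a had medians of 4.16 RPKM in vehicle, 8.23 in insulin, 4.59 in glargine, 7.22 in X10 and 5.53 in IGF1 tumors. For X10, 8 of 10 tumors lay above the vehicle median (log2 fold change 0.69, SE 0.62, limma adjusted p = 0.715). The value was 1.05 without vehicle_174 and 0.41 without vehicle_197. Wnt11, a ligand of morphogenetic movements and branching, had medians of 2.70 RPKM in vehicle and 3.21 in X10 tumors, where it ran from 0.435 to 15.5 (log2 fold change 0.46, SE 0.38, limma adjusted p = 0.681). Leaving out X10_105, X10_111 or vehicle_197 gave 0.25, 0.28 and 0.29, and leaving out X10_116 gave 0.70. These intervals were wide. The SE of a comparison with vehicle was between 0.31 for Wnt5b and 0.73 for Wnt2 on the log2 scale.

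Wnt4 had medians of 1.33 RPKM in vehicle, 0.935 in insulin, 0.94 in glargine, 0.80 in X10 and 0.44 in IGF1 tumors. Its smallest p was for insulin. The log2 fold change of -0.59 for insulin (SE 0.47, limma adjusted p = 0.664) became -0.18 without vehicle_174 and -0.11 with the epithelial score as a covariate. Wnt2 had medians of 2.09 RPKM in vehicle and 2.68 in insulin tumors, while the vehicle mean was 17.5 ± 42.2 because of vehicle_187. Its log2 fold change of -0.44 (SE 0.73, limma adjusted p = 0.866) was 0.12 without that tumor. Wnt6 could be fitted only without the filter on low values, and its smallest p was for X10 and IGF1 against the rest, with a log2 fold change of 0.17 (SE 0.15, limma adjusted p = 0.803).

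The target genes did not separate the groups either. Axin2 had medians of 13.6 RPKM in vehicle (3.97 to 77.9), 14.5 in insulin (7.36 to 48.4), 13.7 in glargine (7.31 to 24.7), 10.3 in X10 (5.03 to 24.7) and 11.5 in IGF1 tumors (1.51 to 26.1). The log2 fold change of X10 and IGF1 against the rest was -0.35 (SE 0.26, p = 0.186, limma adjusted p = 0.713), and 12 of 20 tumors were below the median of the others. Without IGF1_158 it was -0.21. Lef1 had medians of 0.547 RPKM in vehicle, 0.583 in insulin, 0.402 in glargine, 0.631 in X10 and 0.736 in IGF1 tumors. Its smallest p was for glargine, with a log2 fold change of -0.17 (SE 0.41, p = 0.671, limma adjusted p = 0.961).

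Other genes of the pathway were counted in 9 lists holding 101 different genes, of which 82 were tested, and none passed an adjusted p of 0.05 in any comparison (limma). At an unadjusted p under 0.05, the count, beside the shares of all genes given above, was 10 of 82 for insulin, 6 for glargine, 10 for X10, 14 for IGF1, 18 for X10 and IGF1 against the rest and 19 for any difference among the groups. As shares these were 12.2%, 7.32%, 12.2%, 17.1%, 22.0% and 23.2%. Their median log2 fold change was -0.11 for X10 and IGF1 against the rest, beside -0.02 over all genes. Among the 14 receptors tested, Fzd1, Fzd3, Fzd5 and Ptk7 made up the 4 that were lower at this level in X10 and IGF1 tumors, beside 7.57% of all genes. Fzd3, Fzd5 and Ptk7 are named here after their values were seen. Also lower at this level were 4 of 12 other targets, 3 of 12 nuclear factors and 3 of 11 planar polarity genes. So were 2 of 9 inhibitors, 2 of 8 R-spondin genes and 1 of 15 signal transduction genes. The further ligands had 1 of 4 and the secretion genes 0 of 2. Among the fibroblast markers 3 of 8 were lower, and their part in the receptor values was not tested. Fzd1, a Frizzled receptor, had the smallest adjusted p of the 82 genes in this comparison, with medians of 20.2 RPKM in vehicle, 22.1 in insulin, 20.9 in glargine, 16.6 in X10 and 11.3 in IGF1 tumors (log2 fold change -0.56, SE 0.16, limma adjusted p = 0.114).

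Of the extracellular inhibitors, Sfrp2, a decoy that binds Wnt proteins, was the most abundant. It had medians of 119 RPKM in vehicle, 89.9 in insulin, 120 in glargine, 50.9 in X10 and 54.0 in IGF1 tumors. Its value for X10 and IGF1 against the rest was -1.01 on the log2 scale (SE 0.30, limma adjusted p = 0.132). Frzb, a related decoy, had the smallest F-test p of its list (p = 0.00541, limma adjusted p = 0.209). Of the 8 fibroblast markers, 3 were lower in this comparison at an unadjusted p under 0.05, beside 7.57% of all genes, and 0 passed the adjusted limit (limma). Their summed level ran from 2864 to 32304 RPKM in vehicle, 5123 to 22394 in insulin, 3689 to 31336 in glargine, 6551 to 14515 in X10 and 3164 to 27777 in IGF1 tumors, and their part in the Sfrp2 values was not tested. Wls, which carries Wnt ligands to the cell surface, had medians of 57.4 RPKM in vehicle and 97.6 in insulin tumors. Its medians were 63.6 in glargine, 82.6 in X10 and 85.4 in IGF1 tumors. The log2 fold change for insulin was 0.66 (SE 0.25, limma adjusted p = 0.344). Wls was also higher for IGF1 at an unadjusted p under 0.05 (limma), beside 8.84% of all genes in either direction. In insulin tumors 3 of 6 leukocyte markers were also higher than in vehicle tumors at an unadjusted p under 0.05 (limma). Of the leukocyte markers 0 passed the adjusted limit, and 11.1% of all genes passed the unadjusted one in either direction. Their median log2 fold change was 0.58, beside the 6 epithelial markers that were lower. The leukocyte markers summed to 624 to 2135 RPKM in vehicle and 659 to 2789 in insulin tumors, none of the 6 was at 0 in any tumor, and the part of these cells in the Wls values was not tested. Lgr5, a receptor for R-spondins and itself a target gene, had medians of 2.53 RPKM in vehicle and 1.38 in IGF1 tumors, and its log2 fold change for X10 and IGF1 against the rest was -0.60 (SE 0.22, limma adjusted p = 0.277). Lgr6, its relative, was the most abundant of that list, at a median of 12.4 RPKM over all tumors.

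Of the other target genes, Nkd2, a feedback inhibitor acting on Dishevelled, had medians of 12.7 RPKM in vehicle and 6.41 in IGF1 tumors. Its log2 fold change was -1.74 (SE 0.45, p = 0.000358, limma adjusted p = 0.277), and its range in vehicle tumors was 6.78 to 91.7. This is the comparison in which 9 of 12 epithelial markers were lower at an unadjusted p under 0.05 (limma), beside 4.34% of all genes. So were 2 of the 6 basal and myoepithelial markers tested (median log2 fold change -0.90). All 7 basal markers of that list summed to 28.7 to 2721 RPKM in vehicle and 21.9 to 667 in IGF1 tumors, and Krt5 was at 0 in at least 1 of the 50 tumors. Their part in the Nkd2 values was not tested. Ccnd1, which encodes cyclin D1, was the most abundant target, at a median of 246 RPKM, with a log2 fold change of 0.43 for IGF1 (SE 0.22, limma adjusted p = 0.597). Of the further ligands, Wnt7a had the smallest p. Its median was 3.98 RPKM in vehicle tumors (0.276 to 92.0) and 0.379 in glargine tumors (0.172 to 1.00). The log2 fold change for glargine was -2.35 (SE 0.62, p = 0.000395, limma adjusted p = 0.612). In the other groups its medians were low too, at 0.4485 RPKM in insulin, 0.776 in X10 and 0.4135 in IGF1 tumors. It was thus highest, by median, in vehicle tumors. Its RPKM was computed on only 290 bases. In glargine tumors all 5 milk protein markers were higher than in vehicle tumors at an unadjusted p under 0.05 (limma). So was 1 of 5 adipocyte markers, and 0 passed the adjusted limit. Over all genes, 6.23% passed the unadjusted level for glargine in either direction. The median log2 fold change of the milk markers was 2.62. The milk markers summed to 0.425 to 308.5 RPKM in vehicle (median 7.12) and 0.674 to 754 in glargine tumors (median 129), Csn2 and Wap were at 0 in at least 1 of the 50 tumors, and the part of these markers in the Wnt7a values was not tested. Wnt9a was the most abundant of the further ligands, at a median of 4.38 RPKM.

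Ctnnb1, which encodes beta-catenin, had a median of 765 RPKM and an F-test p of 0.907 (limma adjusted p = 0.958). Csnk1d, a kinase of the casein kinase family, had the smallest F-test p of the signal transduction list (p = 0.0441, limma adjusted p = 0.372). Pygo2, a coactivator of beta-catenin, led the nuclear factors in level, at a median of 151 RPKM, and in F-test p (p = 0.0160, limma adjusted p = 0.295). Ryk, an atypical Wnt receptor, was the most abundant receptor at a median of 65.2 RPKM. Vangl1 was the most abundant and Daam2 the one with the smallest F-test p (p = 0.0271, limma adjusted p = 0.330) of the planar polarity genes. These levels depend on the length used for RPKM, which was 784 bases for Ctnnb1, 636 for Pygo2, 717.5 for Vangl1 and 600 for Sfrp2. The order of the pathway genes with other lengths was not examined.

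The members were next compared with each other across the 50 tumors. All 45 pairs were tested by permutation of the tumors (100000 resamples, two-sided), and 2 pairs passed an adjusted p of 0.05 by Pearson's r, 1 of them also by Spearman's rho. Wnt6 and Wnt10a were the closest pair, with r = 0.59 (permutation p = 1e-05, the smallest these resamples can give, adjusted p = 0.00045) and rho = 0.62 (adjusted p = 0.00045). The relation was positive in each of the 5 groups, with r from 0.44 in vehicle to 0.92 in glargine tumors, and r was 0.62 after centring within groups. Leaving out vehicle_161 and IGF1_145, which lay farthest from the median of Wnt6, r was 0.56. The 2 genes are neighbours on chromosome 1, both on the plus strand, with Wnt6 at 74771892 to 74785322 and Wnt10a at 74791516 to 74804179 (GRCm38), 6193 bases apart. The tumor with the highest Wnt10a of all, vehicle_174 (46.1 RPKM), had 0.121 RPKM of Wnt6.

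Wnt7b and Wnt10a had r = 0.44 (permutation adjusted p = 0.0230) but rho = 0.34 (permutation adjusted p = 0.157). Leaving out glargine_78 and IGF1_158, which lay farthest from the median of Wnt7b, r was 0.30 (permutation adjusted p = 0.266), so the call was lost. It was 0.41 after centring within groups (permutation adjusted p = 0.0660), and positive within 3 of the 5 groups, from -0.32 in X10 to 0.73 in vehicle tumors. It passed without the 6 tumors with an epithelial score above 1 (r = 0.45, permutation adjusted p = 0.0298).

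Axin2 and Lef1, the 2 target genes, were only loosely related, with r = 0.20 (permutation adjusted p = 0.362) and rho = 0.18. Axin2 had its highest r among the ligands with Wnt6 (0.34, permutation adjusted p = 0.186), followed by Wnt10a (0.32) and Wnt7b (0.29), and its lowest with Wnt4 (-0.25, permutation adjusted p = 0.329). Lef1 had its highest r with Wnt2 (0.28, permutation adjusted p = 0.321). None of these passed over all 50 tumors. Without the 6 tumors with an epithelial score above 1, a set chosen after seeing the data, 2 of them did, namely Axin2 with Wnt7b (r = 0.48, permutation adjusted p = 0.0298) and Axin2 with Wnt10a (r = 0.43, permutation adjusted p = 0.0342). Axin2 with Wnt7b had a rho of only 0.06 over all 50 tumors and an r of -0.01 without glargine_78 and IGF1_158, and its r ran from -0.38 in X10 to 0.80 in IGF1 tumors. Axin2 with Wnt10a had a rho of 0.22 and an r of 0.30 without vehicle_174 and IGF1_158 (permutation adjusted p = 0.267). The tumor vehicle_189, with the highest Axin2 (77.9 RPKM), and insulin_8, with the highest Lef1, were different tumors, although insulin_8 also ranked 3 of 50 for Axin2 (33.9 RPKM).

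**Figure D4:**
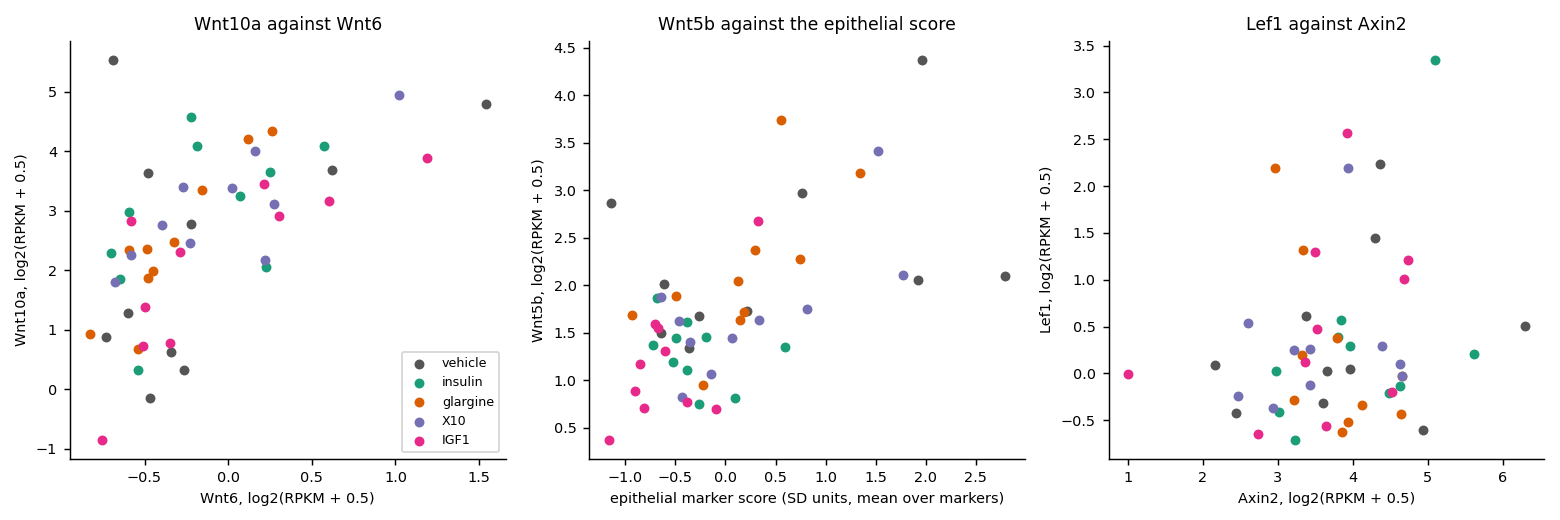
Each point is 1 of 50 tumors, coloured by treatment, on log2(RPKM + 0.5) axes or, for the epithelial score, in SD units: Wnt10a against Wnt6 (r = 0.59), Wnt5b against the epithelial marker score (r = 0.58) and Lef1 against Axin2 (r = 0.20). The first 2 relations are positive, and Lef1 varies widely at middle values of Axin2, with its highest value, in insulin_8, at a high Axin2 level.

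Relations with the scores of the 8 marker lists were tested over 80 combinations. By Pearson's r, 7 passed a permutation adjusted p of 0.05, all of them positive, and 3 passed also by Spearman's rho. A list does not single out a cell type. Pdgfrb, in the fibroblast list, is among the genes that the paper groups as mesenchymal in these tumors. Wnt5b followed the epithelial score, with r = 0.58 (permutation adjusted p = 0.0016) and rho = 0.51 (permutation adjusted p = 0.0064). Its r was 0.54 when vehicle_174 and vehicle_182 were left out and 0.47 after centring within groups. Within groups it was -0.34 in insulin tumors and 0.38 to 0.70 in the other 4 groups. Without the 6 tumors with an epithelial score above 1, chosen after seeing the data, r was 0.42 (permutation adjusted p = 0.136). Wnt4 followed the basal and myoepithelial score, with r = 0.64 (permutation adjusted p = 0.0016) and rho = 0.52, but without vehicle_174 and X10_105 its r was 0.41 (permutation adjusted p = 0.106). Wnt5a followed the fibroblast score, with r = 0.53 (permutation adjusted p = 0.00293) and rho = 0.48. Without vehicle_161 and vehicle_182 it was 0.37 (permutation adjusted p = 0.168), without the 6 tumors with an epithelial score above 1 it was 0.52 (permutation adjusted p = 0.0192), and after centring within groups 0.48 (permutation adjusted p = 0.0126).

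The other 4 combinations were Wnt4 and Wnt11 with the epithelial score (r = 0.48 and 0.41) and Wnt5b and Wnt11 with the basal score (r = 0.43 and 0.47). None of these 4 passed by rho or without the 2 farthest tumors. For Wnt11 and the epithelial score r stayed at 0.41 without those 2 tumors (permutation adjusted p = 0.106) but was 0.13 without the 6 tumors with an epithelial score above 1. For Wnt11 and the basal score it was 0.25 without vehicle_174 and X10_105. Wnt2, Wnt6, Wnt7b, Wnt10a, Axin2 and Lef1 passed with none of the 8 scores. The closest of these was Wnt10a with the epithelial score (r = 0.36), and Axin2 had r = -0.29 with it.

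**Figure D5:**
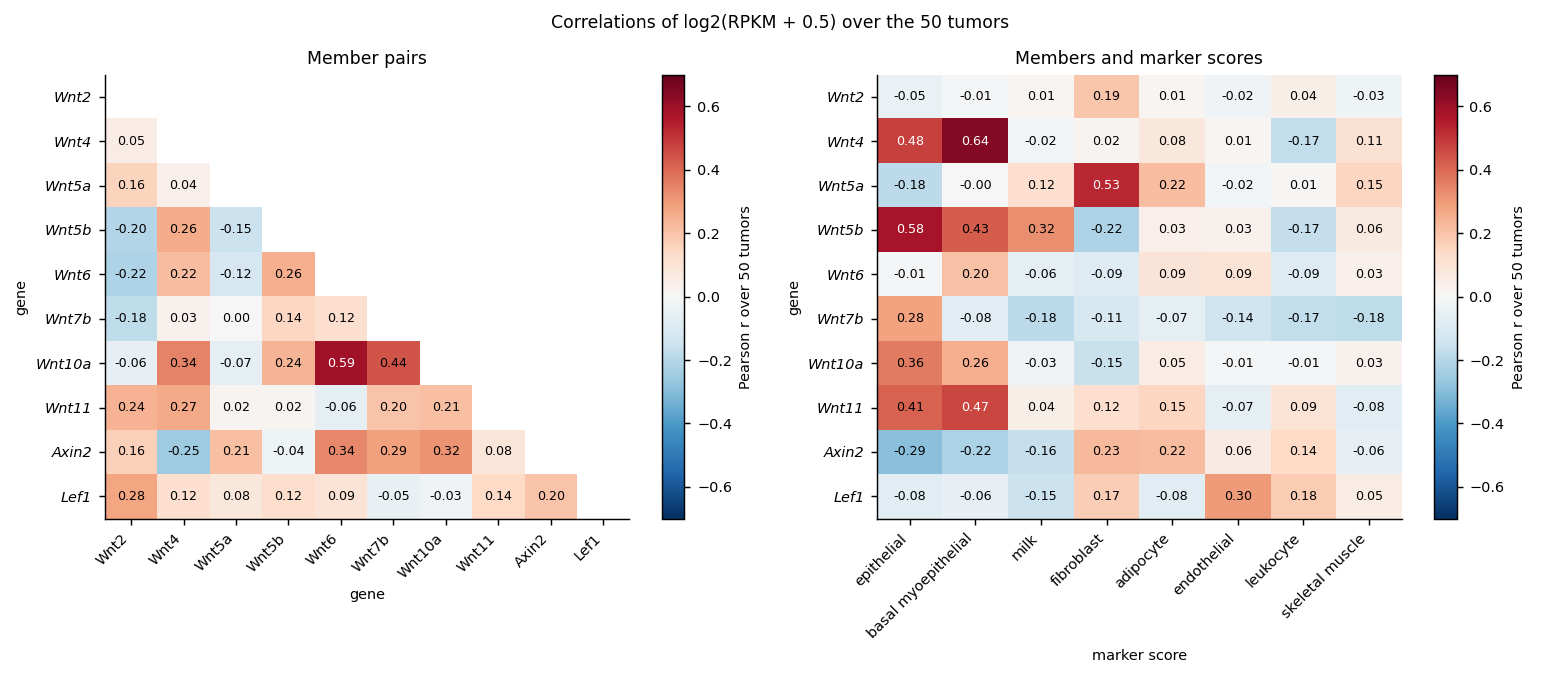
Pearson r over the 50 tumors for the 45 pairs of genes (left) and for each gene with 8 marker scores (right), on a colour scale from -0.7 to 0.7. The strongest pair is Wnt6 and Wnt10a (0.59) and the strongest marker relation is Wnt4 with the basal myoepithelial score (0.64).

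For each gene, the 3 tested genes with the highest Spearman rho over the 50 tumors are given as a description, since the points share their libraries. For Wnt5b these were Marveld2 (0.69), Spint2 (0.69) and Krt7 (0.66), an epithelial junction gene, a protease inhibitor of epithelia and a keratin. For Wnt4 they were S100a9 (0.70), S100a8 (0.69) and Lims2 (0.69), the first 2 being calcium-binding proteins of neutrophils and of stressed epithelium. Wnt5a was nearest to Pdzd4 (0.59), Miat (0.56) and Lrrc15 (0.52), the last a marker of activated fibroblasts. Wnt11 was nearest to Slit1 (0.76), Megf11 (0.67) and Egr2 (0.66). Wnt7b was nearest to Gm14005 (0.61), Pdgfa (0.59) and Cdk3-ps (0.57), and Wnt10a to Thnsl1 (0.62), Slc26a9 (0.52) and Klhdc8a (0.52). Wnt6 was nearest to Wnt10a (0.62), followed by Rab38 (0.61) and Birc3 (0.54). For Axin2 the list was Pik3cb (0.65), Rcan2 (0.64) and Elf4 (0.62), and for Lef1 it was Slc14a1 (0.65), 4833420G17Rik (0.64) and Kcnmb4 (0.63). Wnt2 was nearest to Cftr (0.52), St7 (0.52) and Ikzf4 (0.50), of which Cftr and St7 lie beside Wnt2 on chromosome 6.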

How the data were processed

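Poly-A selected RNA of 50 tumors was sequenced on the Ion Proton. Per the submitters' processing notes and the study's methods, reads were aligned to GRCm38 with TopHat2 2.0.10 and Bowtie2 and counted with HTSeq 0.6.1. The authors deposited RPKM with 3 decimals. The steps between values showed that reads had been scaled to 100 M per library and rounded. Library sizes, gene lengths and whole reads were recovered for 98.5% of tested genes (at least 98.4% of low values per library fell on whole reads).

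The 16733 genes whose mean RPKM reached 0.5 were fitted with limma 3.58.1 (R 4.3.3, intensity trend) on log2(RPKM + 0.5), with the 5 groups in 1 fit, and p-values were Benjamini-Hochberg adjusted over all genes. A fold change on this scale understates the change of low genes. Correlations used permutation tests (100000 resamples, scipy 1.17.1), adjusted within each family of 45 or 80. Each tumor came from a differently numbered mouse. Transcript lengths and positions came from GENCODE M21. Exons of Wnt5a, Wnt7b, Wnt11, Axin2 and Lef1 overlap another annotated gene. Scripts were tested on simulated data.

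The members and gene lists were chosen with earlier results of these data known. Named were all members, pathway genes passing the adjusted limit (at most 5 per comparison), the gene of each pathway list with the smallest F-test p and with the highest mean RPKM, and the 3 genes most like each member. Fzd3, Fzd5, Ptk7 and the genes around Wnt2 were named outside this rule, after their values were seen. Alternatives covered the pseudocount, the filter, scaling, covariates, limma voom on recovered reads and leaving out tumors.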

Additional observations from a re-analysis of the deposited data

Results flagged for a closer look

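In 50 checks (10 genes in 5 groups of 10 tumors), 9 cases in 7 different tumors stood apart from their group, by a gap to the next tumor of more than 0.466 of the group's range on the log2 scale (Dixon's limit). Chance alone flags about 1 in 20 such groups.

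X10_105 stood apart 3 times, with Wnt4 at 12.4 RPKM (next X10 tumor 2.10), Wnt5b at 10.2 RPKM (next 3.80) and Lef1 at 4.07 RPKM (next 0.953). The same tumor had the highest basal and myoepithelial score of all 50 (3.04), and ranked 2 of 50 in the endothelial score (1.17), 3 in the adipocyte and in the skeletal muscle score (1.67 and 1.73), 5 in the epithelial score (1.52) and 6 in the leukocyte score (0.921). The part of the cells behind these scores in its Wnt values was not tested. The tumor vehicle_174 stood apart for Wnt4, at 26.6 RPKM with the next vehicle tumor at 2.55. It had the highest epithelial score (2.79) and ranked 2 of 50 in the basal and myoepithelial score (1.28). IGF1_145 stood apart for Wnt5b, at 5.89 RPKM (next 2.51), and ranked 2 of 50 in the milk score (1.71), 4 in the basal and myoepithelial score (0.772) and 8 in the skeletal muscle score (1.47).

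At the low end, Wnt7b was at 0.396 RPKM in IGF1_158 (next IGF1 tumor 12.2), which also had the lowest epithelial score of the 50 tumors (-1.16), and at 6.41 RPKM in insulin_37 (next 24.0). Wnt11 in glargine_70 was at 6.54 RPKM (next 2.64), in the tumor with the highest adipocyte score (2.08). Lef1 in insulin_8 was at 9.69 RPKM (next 0.989), in the tumor with the highest leukocyte and endothelial scores (both 1.63).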

How the results depend on the processing

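The count of members called stayed at 0 in each of the 6 comparisons under 12 alternative settings and when each of the 50 tumors was left out in turn. The smallest adjusted p in any of these was 0.0883 (Wnt5b, limma, any difference among the groups, without X10_105). The pathway gene counts stayed at 0 under quantile normalization. Over the 50 member comparisons, 36 of 520 recomputed log2 fold changes had the other sign, in 19 comparisons whose original values were at most 0.49 in size. Among the values printed, Wnt5b for glargine was 0.0063 with the epithelial and 0.013 with the fibroblast score as a covariate, and Lef1 for glargine was 0.13 with library size as a covariate; the cause was not tested. Leaving out 1 tumor gave -0.29 to 0.12 for Wnt5b with glargine, -0.40 to 0.034 for Lef1 with glargine and -0.76 to 0.12 for Wnt2 with insulin. For Wnt5b with IGF1, the limma adjusted p ran from 0.145 to 0.957 over all settings.

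The 2 correlated pairs were 1 after centring within groups, 1 without the 2 farthest tumors and 5 without the 6 tumors of high epithelial score; the 7 marker relations were 1 without the 2 farthest (Wnt5b with the epithelial score) and a different 1 without those 6 tumors (Wnt5a with the fibroblast score). The mean of Wnt5a, 37.0 RPKM, was 6.62 per kilobase of the longest transcript. No paired analysis was possible because no mouse number occurs in more than 1 group.

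Depth limits Wnt6 most, with a median of 27 reads per tumor, followed by Lef1 with 77.5. Labels give no batch or sequencing date, so neither was adjusted for. Reads at positions shared with exons of other genes were not divided.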

Other observations

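After the near genes of Wnt2 were seen, the tested genes within 500 kb of each member were listed, as a description. Wnt2 lies at 17988940 to 18030585 on the minus strand of chromosome 6 (GRCm38), and 8 tested genes lie around it. Their rho with Wnt2 over the 50 tumors had a median of 0.39, and 6 of the 8 were at 0.3 or higher, against 2.30% of all tested genes. These were Cftr (0.52), St7 (0.52), Asz1 (0.48), Capza2 (0.41), Met (0.37) and Cttnbp2 (0.32). Met, the receptor of hepatocyte growth factor, ranged from 8.21 to 2086 RPKM with a median of 801, and Capza2, an actin capping protein, from 188 to 22082 RPKM with a median of 3418. In vehicle_187, the tumor with most Wnt2, Met was at 1612 RPKM (rank 4 of 50), Capza2 at 7951 (rank 5) and Cftr at 2.36 (rank 20). In IGF1_136, which had the next highest Wnt2, Met was at 1505 RPKM (rank 6), Capza2 at 5381 (rank 15) and Cftr at 0.201 (rank 35). In IGF1_160, which followed with 43.3 RPKM of Wnt2, Met was at 479.7 RPKM (rank 34), Capza2 at 4395 (rank 18) and Cftr at 5.90 (rank 10). Around the other 9 members the median rho with genes within 500 kb lay between -0.17 (Wnt4, 12 genes) and 0.22 (Axin2, 5 genes).

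IGF1_158 had the lowest level of all 50 tumors in 4 of the 10 genes. These were Wnt7b (0.396 RPKM), Wnt10a (0.057 RPKM), Wnt5b (0.798 RPKM) and Axin2 (1.51 RPKM). Its library held 42.2 M reads, close to the median of 40.9 M, and it ranked 4 of 50 in both the leukocyte (1.09) and the endothelial score (1.08). At the other end, X10_105 was among the 3 highest tumors for 5 of the 10 genes, namely Wnt4, Wnt5b, Wnt6, Wnt10a and Wnt11.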
